A study of Sus scrofa with 9 samples.

Results

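The probes described here measure RNA for splicing factors, for heterogeneous nuclear ribonucleoproteins (hnRNPs) and for proteins of the small nuclear ribonucleoproteins (snRNPs). They were taken by description: every non-control probe of the array whose annotation contains "splicing factor", "heterogeneous nuclear ribonucleoprotein" or "small nuclear ribonucleoprotein" in any letter case. This gave 62 of 43603 probes, aimed at 50 of 41561 distinct transcripts or contigs. They carry 41 gene labels and reduce to 46 targets when probes that share a transcript or contig accession are joined. Pig RefSeq transcripts name 21 of the probes, for 9 genes. The other 41 are named only by similarity of an expressed sequence contig to a protein, often of another species, so these names are less sure. Letters after a name (SFRS11 a to e) tell probes of one label apart.

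RNA came from whole blood of male SPF Clawn miniature pigs, a small laboratory breed. The pre-feeding group of 3 arrays had received no azide and was sampled at 0 h. The other groups, of 3 arrays each, were sampled 6 h and 24 h after 1 oral dose of azide, an inhibitor of cytochrome c oxidase, at 300 µg/kg or 0.01 of the LD50. The labels give 7 months as the age in one field and 7 weeks in another, and do not say whether replicate numbers mark animals, so p-values measure only the spread between these samples. There were no undosed pigs at the later times, which leaves dose, feeding and time of day inseparable. Each group also lay on a slide and scan of its own, so an effect of the slide and one of the group cannot be told apart.

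The unit of all levels below is log2 of the background-subtracted spot signal minus the log2 of that array's 75th percentile. Levels of different probes are not comparable, since each probe has its own binding strength. A change is the difference of 2 group means on this scale, ± the limma standard error (SE, n = 3 arrays per group), and adjusted p-values are limma's after Benjamini-Hochberg adjustment over 19783 tested probes. The threshold was 0.05. Before scaling the arrays differed in brightness: the log2 75th percentile ran from 5.80 (before feeding, replicate 2) to 7.70 (24 h, replicate 3), and 39.9% to 56.6% of probes were well above background. Centring on 8 spike-in control probes in place of the 75th percentile moved every change up by a constant: the median of all probes shifted by 0.21 at 6 h, 0.99 at 24 h and 0.78 for 24 h against 6 h. A member lower than before feeding by less than that constant therefore turns higher on the spike-in scale, and changes are read here relative to the bulk of the probes.

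Introns are removed from precursor mRNA by the spliceosome, which assembles from snRNPs. Each of the main snRNPs holds a small RNA wrapped in a ring of Sm proteins plus proteins of its own, and further subunits such as SF3A, SF3B and the PRP proteins join at defined steps. SR proteins carry a domain rich in arginine and serine and mostly promote the use of nearby exons, while hnRNPs coat nascent RNA and often repress exons. Many of these genes regulate the splicing of their own transcripts, and blood leukocytes switch splicing when they are activated. In bulk blood, fewer cells of a type and less RNA per cell cannot be told apart.

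Of the 62 probes, 39 were tested because every array of some group (3 of 3) detected them above background, which is 62.9% against 45.4% of all probes on the array. These 39 stand for 25 targets. All 9 arrays detected 35 probes (56.5% against 36.2% of all probes), and no array detected 14 of them (22.6% against 39.3%). The remaining 9 were above background on some arrays but did not qualify. By role, 17 of 22 SR protein probes, 11 of 14 hnRNP probes, 5 of 11 snRNP protein probes, 3 of 9 probes for further spliceosome subunits and 3 of 6 others were tested. The subunit class had the lowest share of tested probes: 5 of 9 stayed at background throughout, among them the probes for SF3B3 and SLU7.

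No member passed the adjusted threshold in any comparison. At 6 h against before feeding, 5 of all tested probes passed (0.0253%), and none did at 24 h against before feeding (0%) or 24 h against 6 h (0%). The smallest adjusted p of a member by limma was 0.0813, 0.216 and 0.113 in these comparisons. With an unadjusted p under 0.05, 1 member was higher and 3 were lower at 6 h, where 25.5% of all tested probes had such a p (14.6% higher, 10.9% lower). At 24 h no member was higher and 5 were lower, beside 13.9% of all probes (5.27% higher, 8.61% lower). The 1 higher at 6 h was PRP18, and the 5 lower at 24 h include SFRS4 a and Sm-D2. Each of these probes entered the test only through groups where it was high. Between 24 h and 6 h, 6 members were higher and 2 lower, beside 21.6% (7.98% higher, 13.6% lower). The members' shares were 10.3%, 12.8% and 20.5%, so with both directions pooled these probes passed no more often than the array as a whole. By direction, the 5 lower at 24 h and the 6 higher from 6 h to 24 h exceeded the shares of all probes, and the other directions fell below. SFRS11 b, c and d, probes of 1 gene, are among the 5. The 6 include both hnRNP H1 probes, and also SFRS11 e and SFRS2-like, which share a contig accession, so neither count is of independent genes.

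Members did not move as one body. Their median change was -0.10 at 6 h, with 18 higher and 21 lower (52.5% and 47.5% of all tested probes), while the median of all tested probes was 0.04. At 24 h the members' median was 0.30, with 24 higher and 15 lower (49% and 51% of all), against -0.01 for all probes. From 6 h to 24 h it was 0.06, with 22 higher and 17 lower (43.7% and 56.3% of all), against -0.09. The split at 24 h is 35 higher to 4 lower on the spike-in scale, where 96.7% of all probes were higher. The members' median was 0.31 above that of all probes at 24 h, but only 0.08 above it with array weights, 0.17 without pre-feeding replicate 2 and 0.19 without 24 h replicate 3. Both comparisons with the pre-feeding group use the same 3 arrays and are not independent.

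**Figure D1:**
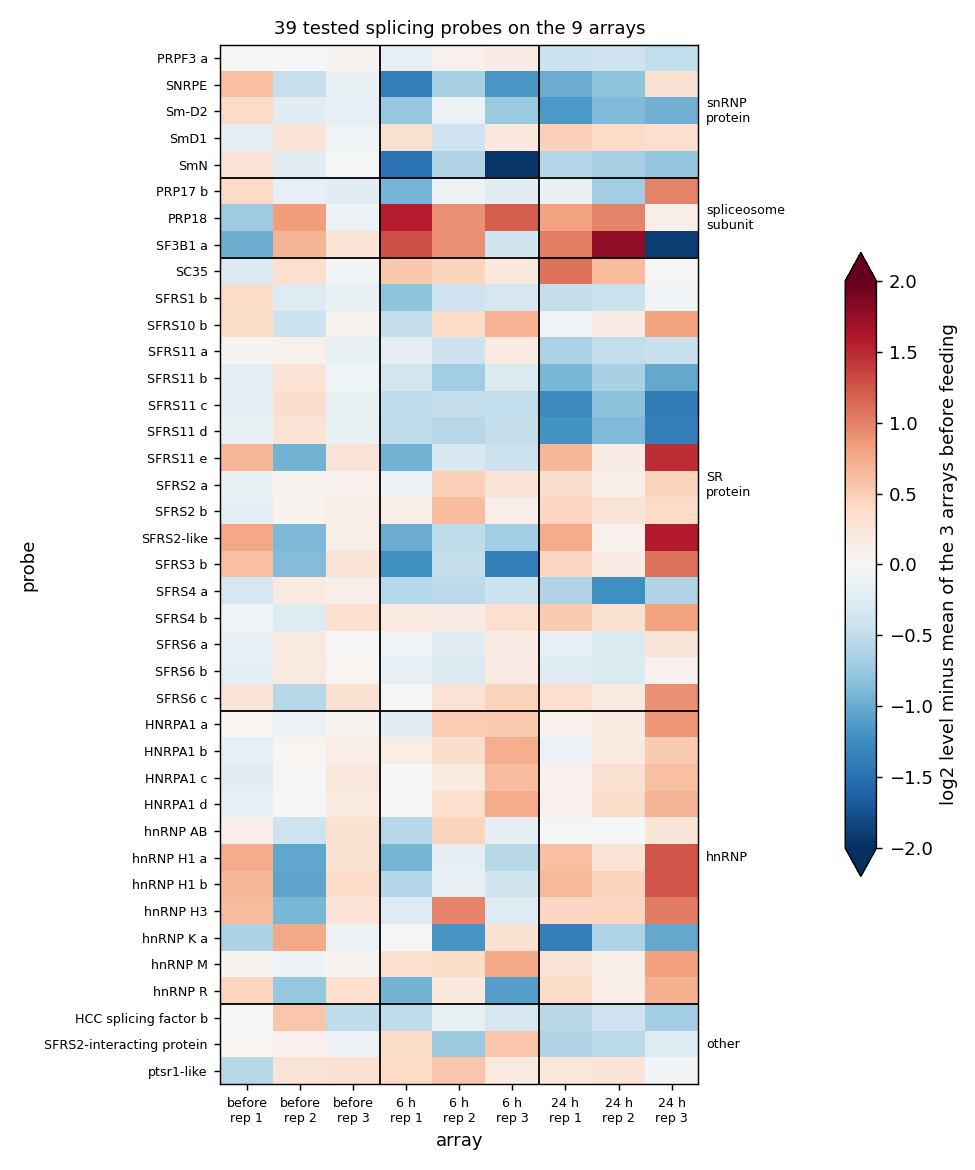
Each row is one of the 39 tested probes, grouped by role, and each column an array; colour is the log2 level minus that probe's mean over the 3 pre-feeding arrays, capped at 2 either way. SFRS11 a to d turn blue at 24 h. SFRS11 e and SFRS2-like turn red on 24 h replicates 1 and 3 and stay near the pre-feeding mean on replicate 2. On the spike-in scale the 24 h mean of every probe lies 0.99 higher relative to its pre-feeding mean. The 24 h means of SFRS11 a and b then turn to 0.47 and 0.13.

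**Figure D2:**
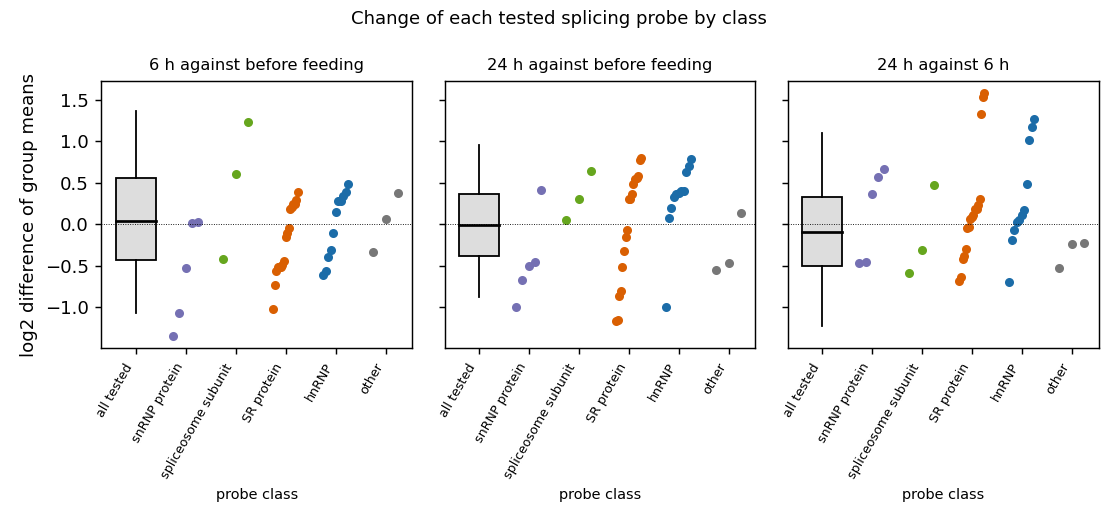
Points are the log2 differences of group means of the 39 tested probes by role, in each of 3 comparisons; the grey box spans the middle 50% of all 19783 tested probes, with its median line and whiskers from the 5th to the 95th percentile. The snRNP protein SmN at -1.35 marks the low end at 6 h, SFRS11 c and d at -1.17 and -1.15 the low end at 24 h, and SFRS3 b at 1.58 the high end of 24 h against 6 h; spike-in centring would lift the second panel by 0.99 and the third by 0.78.

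Proteins of the snRNPs had the lowest changes of the set at 6 h. Of their 5 tested probes 3 were lower and 2 higher at 6 h (median -0.53), and 4 were lower and 1 higher at 24 h (median -0.50), a direction that 3 of the 4 lost on the spike-in scale (median 0.49), with the fourth, Sm-D2, then at 0.00. The probes whose values carry this description are printed here. Capitals in SmN mark AATAAA, the canonical signal for cleavage and polyadenylation, which occurs in 4 of 62 member probes (6.45%, or 8.06% on either strand) and 12.1% of all probes (16.3% on either strand).
SmN: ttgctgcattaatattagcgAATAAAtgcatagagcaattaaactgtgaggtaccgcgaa
SNRPE: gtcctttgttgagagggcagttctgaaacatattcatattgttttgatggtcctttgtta
Sm-D2: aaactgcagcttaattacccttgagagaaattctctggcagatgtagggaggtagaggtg
PRP18: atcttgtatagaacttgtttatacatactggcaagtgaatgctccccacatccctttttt

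SmN is a Sm ring protein known mainly from brain and heart, where it takes the place of SmB. Its probe read 2.36, 1.87 and 2.05 before feeding, 0.61, 1.49 and 0.14 at 6 h, and 1.5, 1.43 and 1.32 at 24 h. All 6 dosed arrays lay below all 3 pre-feeding arrays, with a wide scatter at 6 h and a narrow one at 24 h. The change was -1.35 ± 0.35 at 6 h, a 2.55-fold lower level (limma adjusted p = 0.0813), and -0.67 ± 0.35 at 24 h (adjusted p = 0.416), the latter 0.32 on the spike-in scale. Without 6 h replicate 2 the 6 h change was -1.72 with a limma adjusted p of 0.0213, in a fit where 2405 of all probes passed.

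SNRPE is the E protein of the same ring, named from pig RefSeq. Before feeding it read 4.23, 3.17 and 3.49, at 6 h 2.25, 2.97 and 2.47, and at 24 h 2.63, 2.83 and 3.93. The 6 h arrays lay below the pre-feeding arrays without overlap, and at 24 h replicate 3 was back among them. Its change was -1.07 ± 0.41 at 6 h (limma adjusted p = 0.149) and -0.50 ± 0.41 at 24 h (adjusted p = 0.603), or 0.49 at 24 h on the spike-in scale.

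Sm-D2, also a core ring protein, was lowest at 24 h. It read -1.17, -1.78 and -1.73 before feeding, -2.32, -1.67 and -2.30 at 6 h, and -2.71, -2.45 and -2.52 at 24 h. At 24 h all arrays lay below all others, 1 of them not well above background, with a change of -1.0 ± 0.29 (limma adjusted p = 0.241). Sm-D2 entered the test only through the pre-feeding and 6 h groups, so its lower 24 h level is a description. The SmD1 probe, whose contig was matched to a mould protein, went the other way: -0.03, 0.43 and 0.09 before feeding, 0.47, -0.25 and 0.38 at 6 h, and 0.64, 0.57 and 0.51 at 24 h, a change of 0.41 ± 0.28 (adjusted p = 0.539). PRPF3 a, for a protein of the U4/U6 snRNP, was flat at 6 h (3.84, 3.81 and 3.91 before, 3.68, 3.93 and 4.01 after) and at 24 h read 3.42, 3.43 and 3.35, a change of -0.45 ± 0.24 (limma adjusted p = 0.432) that was 0.55 on the spike-in scale.

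Markers of blood cell types moved over the same arrays. The mean log2 level of T cell markers, with 9 of 18 listed genes tested, was 2.39, 2.27 and 2.67 before feeding, 1.66, 2.12 and 1.01 at 6 h, and 2.31, 2.26 and 2.23 at 24 h. Summed on the linear scale, as multiples of the array's 75th percentile, T cell markers ranged from 138 to 165 before feeding. The range was 43.2 to 108 at 6 h, and by 24 h it was 86.7 to 107. Neutrophil markers (6 of 20 tested) summed to 350 to 457, 681 to 1690 and 208 to 427, and monocyte markers (6 of 12) to 105 to 144, 301 to 757 and 154 to 364. By mean log2 level the neutrophil markers were at 4.62, 6.22 and 4.99, higher at 24 h than before feeding, whereas their 24 h sums reached lower. For monocyte markers the mean log2 levels were 3.46, 5.31 and 4.2. The part of cell makeup in the splicing values was not tested.

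PRP18 acts in the second catalytic step of splicing. Its probe was not well above background on any of the 3 pre-feeding arrays and was so on all 6 later ones. It read -3.92, -2.38 and -3.32 before feeding, -1.64, -2.29 and -2.0 at 6 h, and -2.40, -2.22 and -3.08 at 24 h. The 6 h arrays lay above the pre-feeding arrays, whereas the 24 h arrays overlapped them. The change was 1.23 ± 0.41 at 6 h (limma adjusted p = 0.115). With pre-feeding values set no lower than the background limit, the 6 h level was 1.79-fold higher. No fold is given for 24 h, where the groups overlapped. The probe entered the test only through the later groups, so its difference from the pre-feeding arrays is a description. With another background correction, normexp, the change was 0.18 at 6 h and -0.26 at 24 h, so the fold holds only for the main background subtraction.

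The other subunits gave little. SF3B1 a, for the U2 snRNP subunit that contacts the branch point, read -0.34, 1.31 and 0.91 before feeding, 1.92, 1.55 and 0.23 at 6 h, and 1.65, 2.40 and -1.27 at 24 h. Its arrays scattered more than any group difference, and the 24 h change was 0.30 ± 0.85 (limma adjusted p = 0.901). PRP17 b, for another second-step factor, differed by -0.42 ± 0.43 at 6 h and 0.05 ± 0.43 at 24 h (adjusted p = 0.555 and 0.972).

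**Figure D3:**
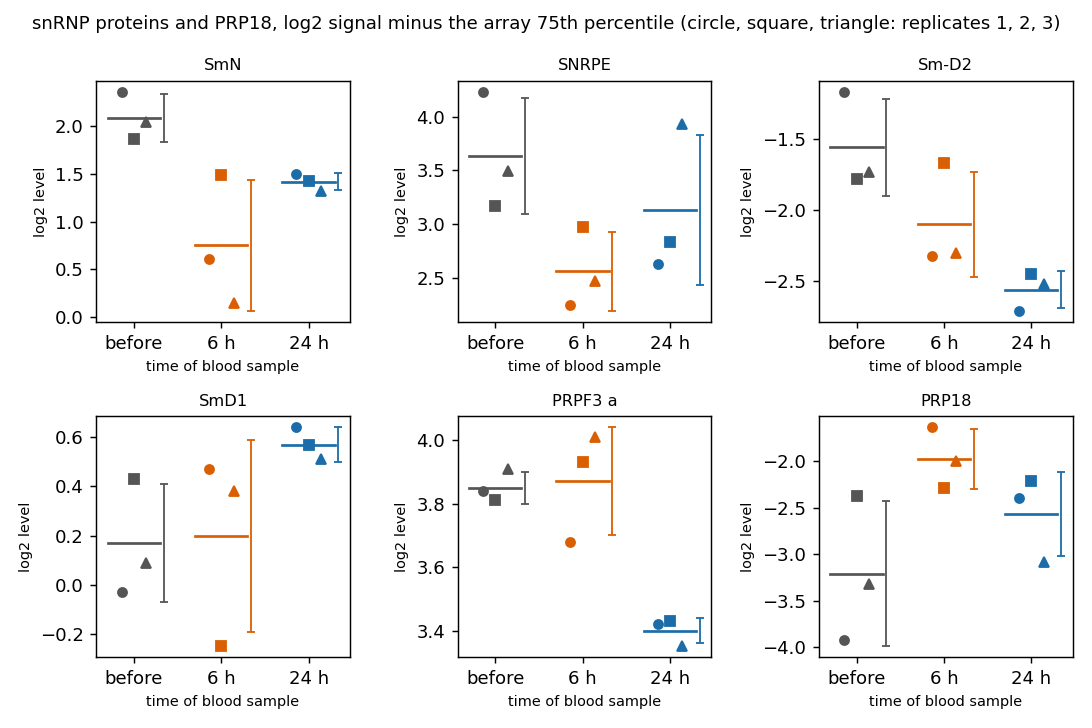
Log2 levels of 5 snRNP protein probes and PRP18 by time, with circle, square and triangle for replicates 1, 2 and 3, a line at the group mean and a bar of 1 SD (n = 3); y axes differ between panels. SmN and SNRPE are below the pre-feeding arrays at 6 h, Sm-D2 and PRPF3 a are lowest at 24 h, and PRP18 is highest at 6 h; on the spike-in scale the 24 h means lie 0.99 higher relative to those before feeding, which puts the PRPF3 a, SNRPE and SmN means above those before feeding.

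Among SR proteins the 17 tested probes had 6 higher and 11 lower values at 6 h (median -0.15) and 9 higher and 8 lower at 24 h (median 0.30). The spread at 24 h came largely from probes of a single gene. SFRS11, now called SRSF11, is an SR-related protein that associates with U2AF, the factor that recognises 3′ splice sites. Its 5 probes start at bases 446, 780, 1149, 1205 and 2679 of the pig transcript as the scanner files number it, in the order a to e. The SFRS2-like probe, at base 2728 of its own contig, is described by a weak match to bovine SFRS2 but shares a contig accession with SFRS11 e. SFRS11 b to e and SFRS2-like are printed because they did not move alike, and capitals mark TCNCGNTC, discussed below.
SFRS11 b: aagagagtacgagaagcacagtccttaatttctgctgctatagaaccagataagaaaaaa
SFRS11 c: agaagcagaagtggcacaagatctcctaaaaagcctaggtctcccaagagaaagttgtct
SFRS11 d: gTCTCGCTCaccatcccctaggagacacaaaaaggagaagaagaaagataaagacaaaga
SFRS11 e: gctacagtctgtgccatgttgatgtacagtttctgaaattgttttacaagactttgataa
SFRS2-like: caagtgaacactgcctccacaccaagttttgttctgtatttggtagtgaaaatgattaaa

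SFRS11 c read 5.12, 5.67 and 5.17 before feeding, 4.81, 4.85 and 4.83 at 6 h, and 4.04, 4.50 and 3.90 at 24 h. SFRS11 d gave 5.05, 5.47 and 5.05, then 4.68, 4.64 and 4.72, then 3.99, 4.30 and 3.83. In both probes the 3 times formed separate steps with no overlap between neighbours. At 24 h c differed by -1.17 ± 0.28, a 2.25-fold lower level, and d by -1.15 ± 0.26, 2.22-fold lower (limma adjusted p = 0.216 for each), and on the spike-in scale by -0.18 and -0.15. Relative to 6 h the 24 h changes were -0.68 ± 0.28 and -0.64 ± 0.26 (adjusted p = 0.194 for each), and 0.10 and 0.14 on the spike-in scale.

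SFRS11 b read 3.34, 3.80 and 3.45, then 3.16, 2.84 and 3.26, then 2.62, 2.88 and 2.5, with every 24 h array below every pre-feeding array. SFRS11 a read 1.33, 1.36 and 1.15, then 1.09, 0.85 and 1.46, then 0.65, 0.78 and 0.83, and its 24 h arrays lay below all others. Their 24 h changes were -0.87 ± 0.27 for b (limma adjusted p = 0.247) and -0.52 ± 0.26 for a (adjusted p = 0.401), but 0.13 and 0.47 on the spike-in scale. With any single array left out, the 24 h change ran from -1.35 to -1.0 for c and from -1.28 to -1.01 for d.

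SFRS11 e gave the opposite picture at 24 h. It read 3.32, 1.72 and 2.92 before feeding, 1.72, 2.34 and 2.23 at 6 h, and 3.33, 2.81 and 4.14 at 24 h. The 24 h arrays lay above all 6 h arrays and overlapped the scattered pre-feeding arrays. The change was 0.77 ± 0.46 at 24 h (limma adjusted p = 0.475) and 1.33 ± 0.46 from 6 h to 24 h, a 2.52-fold higher level (adjusted p = 0.148). SFRS2-like followed it, with 2.48, 0.81 and 1.83, then 0.72, 1.20 and 1.01, then 2.45, 1.79 and 3.30, and a change from 6 h to 24 h of 1.54 ± 0.47 (limma adjusted p = 0.127).

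The gap between probes of SFRS11 does not depend on the scaling constant of an array. The change of e exceeded that of c by 1.94 at 24 h against before feeding and by 2.01 at 24 h against 6 h. Taken array by array and set to a mean of 0 before feeding, the difference of e minus d was 0.81, -1.22 and 0.41 before feeding, -0.43, 0.23 and 0.04 at 6 h, and 1.88, 1.04 and 2.84 at 24 h. All 24 h arrays lay above all others. This pair was chosen after its values were seen, so the difference is a description without a test. On these arrays the signals of e and d changed by unequal amounts.

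**Figure D4:**
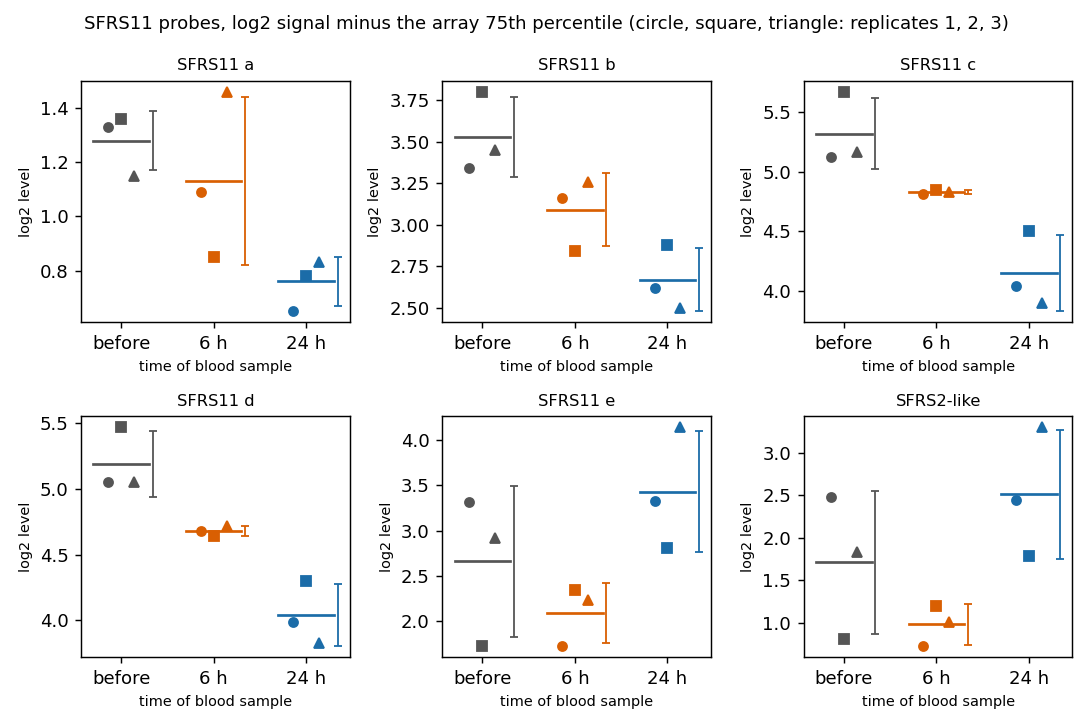
Log2 levels of the 5 SFRS11 probes and the SFRS2-like probe by time, symbols for replicates, line at the mean and bar of 1 SD (n = 3); y axes differ between panels. SFRS11 c and d step down from 6 h to 24 h without overlap while SFRS11 e and SFRS2-like are highest at 24 h; on the spike-in scale the 24 h means lie 0.99 higher relative to those before feeding, which leaves the changes of c and d at -0.18 and -0.15 and turns a and b to 0.47 and 0.13.

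Probes of SFRS4 (SRSF4) also disagreed. SFRS4 a read -1.97, -1.43 and -1.49 before feeding, -2.20, -2.15 and -2.06 at 6 h, and -2.23, -2.86 and -2.23 at 24 h, and was well above background on 7 of 9 arrays. It entered the test only through the pre-feeding group, where it was highest, so its later difference from that group is a description. SFRS4 b read 1.46, 1.27 and 1.85, then 1.73, 1.69 and 1.87, then 2.06, 1.83 and 2.33. At 24 h a differed by -0.81 ± 0.28 and b by 0.55 ± 0.27 (limma adjusted p = 0.282 and 0.394), with a at 0.18 and b at 1.54 on the spike-in scale. Their difference, b minus a set to a pre-feeding mean of 0, was 0.27, -0.46 and 0.19, then 0.78, 0.70 and 0.79, then 1.14, 1.54 and 1.41, also without a test. Probe a starts at base 486 and b at base 1377 of the transcript.

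Some SR probes share a sequence feature that the description rule did not use. In TCNCGNTC, with N any base, serine, arginine and serine codons can follow each other as in the RS domain, and 7 of the 62 members hold it (11.3% on the probe strand and on either strand) against 0.28% of all probes (0.576% on either strand). All 7 are among the 22 SR protein probes, and the other SR protein probes lack it. The examples show it in capitals, beside SFRS4 a, which lacks it.
SFRS6 c: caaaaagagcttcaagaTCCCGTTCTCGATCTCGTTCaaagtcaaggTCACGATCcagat
SFRS6 b: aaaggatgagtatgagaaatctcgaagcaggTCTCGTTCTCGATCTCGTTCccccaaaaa
SFRS10 b: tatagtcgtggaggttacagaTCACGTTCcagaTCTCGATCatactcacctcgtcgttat
SFRS2 a: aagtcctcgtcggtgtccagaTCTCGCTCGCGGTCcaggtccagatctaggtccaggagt
SFRS4 b: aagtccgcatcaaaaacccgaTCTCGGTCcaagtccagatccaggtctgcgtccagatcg
SFRS4 a: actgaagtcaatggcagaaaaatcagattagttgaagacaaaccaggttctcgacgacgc

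Because such repeats recur among SR genes, a probe holding one may bind transcripts of a relative, which was not tested. SFRS6 b and c share a run of 17 bases, and they differed by -0.15 and 0.48 at 24 h. The SFRS2 (SRSF2) probes a and b, from a founding member of the family, had changes of 0.21 and 0.29 at 6 h and 0.30 and 0.36 at 24 h, with all 24 h arrays above all pre-feeding arrays in both. SC35 is an older name of the same gene; its probe shares contigs with SFRS2 a and b and differed by 0.39 ± 0.32 and 0.58 ± 0.32 (limma adjusted p = 0.457 and 0.446). SFRS10 b, for the exon activator TRA2B, differed by 0.19 ± 0.38 and 0.30 ± 0.38. SFRS1 b, for the prototype SR protein SRSF1, differed by -0.51 ± 0.29 at 6 h, without overlap, and by -0.32 ± 0.29 at 24 h (limma adjusted p = 0.280 and 0.633), the latter 0.67 on the spike-in scale.

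SFRS3 (SRSF3), the smallest classical SR protein, was low at 6 h by its tested probe. SFRS3 b read 0.03, -1.43 and -0.31 before feeding, -1.80, -1.04 and -1.93 at 6 h, and -0.14, -0.41 and 0.53 at 24 h. The 24 h arrays lay above all 6 h arrays, while pre-feeding replicate 2 lay among the 6 h arrays. It differed by -1.02 ± 0.43 at 6 h (limma adjusted p = 0.174) and by 1.58 ± 0.43 from 6 h to 24 h, a 2.99-fold higher level (adjusted p = 0.113), but by 0.64 with normexp. Without 6 h replicate 2 the latter was 1.86 with an adjusted p of 0.0446, beside 1764 of all probes past the threshold. Printed with it are the hnRNP probes that had the same course.
SFRS3 b: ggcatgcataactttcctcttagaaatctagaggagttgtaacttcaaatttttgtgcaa
hnRNP H1 a: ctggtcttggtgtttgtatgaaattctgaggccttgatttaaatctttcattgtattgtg
hnRNP H1 b: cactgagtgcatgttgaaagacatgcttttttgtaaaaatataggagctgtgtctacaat
hnRNP R: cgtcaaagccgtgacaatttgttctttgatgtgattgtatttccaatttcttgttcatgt

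At 24 h, 10 of 11 tested hnRNP probes had a mean above the pre-feeding mean, beside 49% of all tested probes, with a median of 0.38. This count was the same under the 6 other scalings, of which quantile normalization and the deposited values gave nearly the same changes. On the spike-in scale, however, 96.7% of all probes were higher. Without pre-feeding replicate 2 the 24 h change was -0.13 for hnRNP AB and 0.02 for hnRNP R. At 6 h 6 of the hnRNP probes were higher and 5 lower (median 0.15). None had an unadjusted p under 0.05 against the pre-feeding arrays. Of the 11 probes, 4 are for HNRPA1 and 2 for hnRNP H1, so they are not independent.

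hnRNP H1 binds runs of guanines and regulates many exons. H1 a read 4.79, 3.01 and 4.36 before feeding, 3.12, 3.87 and 3.49 at 6 h, and 4.65, 4.32 and 5.30 at 24 h. H1 b, whose list of matched accessions shares 3 with that of a, read 1.51, -0.21 and 1.22, then 0.25, 0.67 and 0.44, then 1.49, 1.29 and 2.10. Both were higher on every 24 h array than on any 6 h array, and pre-feeding replicate 2 was the lowest array of all 9 in both. From 6 h to 24 h they differed by 1.27 ± 0.46 (2.40-fold) and 1.17 ± 0.43 (2.26-fold), with limma adjusted p-values of 0.160 and 0.164.

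hnRNP R, which binds RNA in axons and in the nucleus, read 3.92, 2.73 and 3.82 before feeding, 2.55, 3.70 and 2.39 at 6 h, and 3.85, 3.62 and 4.20 at 24 h. Its 6 h replicate 2 lay inside the 24 h range, and the change from 6 h to 24 h was 1.01 ± 0.43 (limma adjusted p = 0.208). hnRNP H3, a relative of H1, read 0.29, -1.26 and -0.06, then -0.60, 0.63 and -0.60, then 0.08, 0.09 and 0.70, with overlap of all groups and a change of 0.48 ± 0.46 from 6 h to 24 h (adjusted p = 0.590).

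These probes share a base composition. The 6 members with an unadjusted p under 0.05 and a higher value at 24 h than at 6 h (SFRS3 b, SFRS2-like, SFRS11 e, hnRNP H1 a, hnRNP H1 b and hnRNP R) all have a GC content of 35% to 36.7%. Among the 17 tested members with at most 37% GC the median change from 6 h to 24 h was 0.48, and among the other 22 it was 0. All tested probes showed the same split to a smaller degree, 0.11 for 7612 probes and -0.19 for 12171. At 6 h against before feeding the medians were -0.42 and 0.20 for members and -0.15 and 0.16 for all probes. At 24 h against before feeding there was little split, with 0.30 and 0.25 for members and 0.02 and -0.03 for all probes. SFRS11 b, with 36.7% GC, had lower values at 24 h together with SFRS11 a, c and d, which have 43.3% to 45%.

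Array brightness and these probes were set side by side. Relative to the pre-feeding mean, the median of the 17 low-GC members was 0.38, -0.41 and 0.12 on the pre-feeding arrays, -0.59, -0.18 and -0.40 at 6 h, and 0.36, 0.08 and 0.30 at 24 h. For all low-GC probes it was 0.15, -0.17 and 0.04, then -0.25, 0.00 and -0.17, then -0.09, -0.07 and 0.15. Pre-feeding replicate 2, the dimmest array, was lowest of its group and 24 h replicate 3, the brightest, highest of its group, for all 6 of the probes just named. At 6 h replicate 2, the dimmest array of that group, had the highest median of the low-GC members of the 3 arrays. Without pre-feeding replicate 2 the 24 h change of SFRS11 e was 0.30 in place of 0.77 and that of hnRNP H1 a 0.18 in place of 0.70. The part of base composition and brightness in these values was not tested.

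HNRPA1 (HNRNPA1), an abundant repressor of exons, was measured by 4 probes, of which c and d overlap in sequence. HNRPA1 d read 2.33, 2.47 and 2.67 before feeding, 2.45, 2.83 and 3.23 at 6 h, and 2.58, 2.85 and 3.17 at 24 h. The groups overlapped, as the within-group range was wider than the shift. The 4 probes differed by 0.28 to 0.39 at 6 h and by 0.20 to 0.38 at 24 h, each with an SE near 0.3 (0.28 to 0.31). Their limma adjusted p-values at 24 h ran from 0.584 to 0.783. The widest gap between these 4 probes in one comparison was 0.30, against 2.01 between the probes of SFRS11.

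hnRNP M, a splicing regulator with several RNA-binding domains, lay above the pre-feeding arrays at both times: -1.28, -1.43 and -1.27, then -1.01, -0.96 and -0.57, then -1.04, -1.21 and -0.51. Its changes were small, 0.48 ± 0.28 and 0.40 ± 0.28 (limma adjusted p = 0.300 and 0.537). hnRNP K a, for a protein that binds runs of cytosines, was the exception of the class. It read -0.05, 1.34 and 0.46 before feeding, 0.54, -0.60 and 0.88 at 6 h, and -0.79, -0.04 and -0.44 at 24 h, with overlap between groups and a 24 h change of -1.0 ± 0.46 (adjusted p = 0.362), -0.01 on the spike-in scale. hnRNP AB was level, at -0.10 ± 0.33 and 0.07 ± 0.33.

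**Figure D5:**
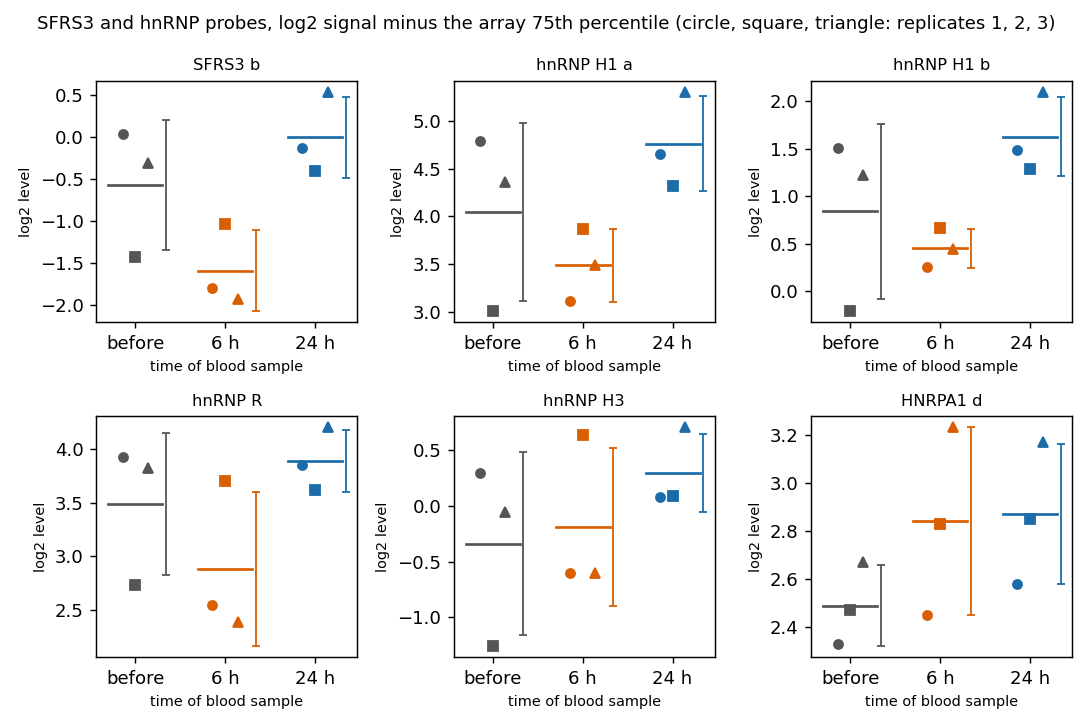
Log2 levels of SFRS3 b and 5 hnRNP probes by time, symbols for replicates, line at the mean and bar of 1 SD (n = 3); y axes differ between panels. SFRS3 b and both hnRNP H1 probes have all 24 h arrays above all 6 h arrays, pre-feeding replicate 2 (grey square) is the lowest pre-feeding array in all panels but HNRPA1 d, and 24 h replicate 3 (blue triangle) is the highest of its group; spike-in centring would raise the 24 h means by 0.99 and the 6 h means by 0.21 relative to those before feeding.

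The 3 tested probes outside these classes had small changes. HCC splicing factor b differed by -0.55 ± 0.31 at 24 h (limma adjusted p = 0.447; 0.44 on the spike-in scale). The probe for the SFRS2-interacting protein, an SR-related protein that associates with RNA polymerase II, read 1.77, 1.82 and 1.61 before feeding, 2.10, 1.01 and 2.28 at 6 h, and 1.13, 1.19 and 1.47 at 24 h, all of these below the pre-feeding arrays, and differed by -0.47 ± 0.34 (adjusted p = 0.555; 0.52 on the spike-in scale). ptsr1-like, named by a match to a Leishmania protein, differed by 0.38 ± 0.30 at 6 h (adjusted p = 0.450).

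Counted over all tested members, values at 6 h lay wholly above the pre-feeding arrays for 2 and wholly below for 7, against 15.9% and 10.7% of all probes. At 24 h it was 5 above and 9 below, against 7.39% and 19%, and 4 of the 9 are SFRS11 probes. From 6 h to 24 h it was 6 above and 6 below, against 10% and 16.5%. The 2 above at 6 h include PRP18, and each of the 3 counts below includes SFRS4 a. The counts below at 24 h and from 6 h to 24 h also include Sm-D2. Each of these probes entered the test only through groups where it was high. Of the untested probes, U1-70K a, for the U1 snRNP protein that helps to define 5′ splice sites, was above background on 4 arrays and none before feeding. It read -3.56, -3.23 and -3.31 before feeding, -2.70, -2.98 and -1.14 at 6 h, and -4.04, -3.24 and -3.54 at 24 h. The other probe of this label, U1-70K b, was above background on 5 arrays, 1 of them before feeding. Its groups overlapped, with means of -2.69, -2.8 and -3.07. SNRPA, the U1 A protein, was also detected on 4 arrays, 2 at 6 h and 2 at 24 h. Its levels overlapped between all groups, with means of -3.29, -3 and -3.22.

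Splicing genes outside the description rule were read from a list of 135 symbols. Only 9 of them had a named probe, with 17 probes, of which 16 were tested and 0 passed the threshold in any comparison (smallest limma adjusted p = 0.144, 0.446 and 0.155). At 6 h 14 were higher and 2 lower (median 0.32), beside 52.5% of all probes higher, and 2 were higher with an unadjusted p under 0.05, beside 14.6% of all probes. At 24 h it was again 14 and 2 (median 0.24), beside 49%. From 6 h to 24 h 5 were higher and 11 lower (median -0.17), beside 43.7%. With each array centred on its median the 6 h split was 10 to 6, and on the spike-in scale the 24 h against 6 h split was 15 to 1. The 2 at 6 h were probes for PTBP3, a relative of the polypyrimidine tract-binding protein (0.88 ± 0.33), and QKI, an RNA-binding regulator of splicing (0.79 ± 0.34), each also higher by its second probe (0.60 ± 0.41 and 0.52 ± 0.28). TRA2A, the close relative of TRA2B, read 2.75, 1.31 and 2.51 before feeding, 1.06, 1.91 and 1.58 at 6 h, and 2.65, 2.26 and 3.32 at 24 h on its brighter probe. As in SFRS3 b, pre-feeding replicate 2 was lowest and 24 h replicate 3 highest of their groups. The change was 1.22 ± 0.43 from 6 h to 24 h (adjusted p = 0.155), while its other probe differed by 0.18 ± 0.37.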

How the data were processed

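The scanner file of each of the 9 arrays gives a processed intensity per spot; per the file headers, background was subtracted and no scaling between arrays was done. Per the labels, Cy3-labelled cRNA was made from 0.5 µg of PAXgene blood RNA. The headers carry Feature Extraction version 10.5.1.1, whereas the submitters' processing notes state 9.5.3.1; this was not settled. The deposited table of the whole series holds linear intensity with a median of 11.4 in each of 9 columns and served as an alternative. Its making by the authors is not described in what was used here. Member changes from it were nearly the same as with quantile normalization, so it adds little as a separate alternative. Control and outlier spots were left out, replicate spots averaged and 7 probes without a usable spot dropped, which left 43596. Scaling used the 75th percentile of an array. Probes detected on all 3 arrays of some group (19783) were fitted with limma 3.58.1 in R 4.3.3 over all 9 arrays, the design holding group alone (residual degrees of freedom 6, prior 4.6). The fit was tested on simulated data. Figures were drawn in Python 3.11.15 (matplotlib 3.10.9, pandas 2.3.3, numpy 2.4.6).

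Sequences, start bases and descriptions are those of the scanner files, and current symbols come from the RefSeq gene table of Sscrofa11.1. Genome positions were not used here. The sequences of some probes are not reported here. The members, the list of other splicing genes and the marker lists were chosen with earlier results of these data known. Members were described singly by a rule: in each role and comparison, up to 2 per direction with an unadjusted p under 0.05 and the largest change, or the one with the smallest p. Other probes were named to account for a gene's further probes, for non-overlapping groups or for an exception, after their values were seen. Alternatives were other scalings, filters and fits, a replicate block, 1 probe per gene and leaving out each array.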

Additional observations from a re-analysis of the deposited data

How the results depend on the processing

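The count of members past the threshold (0 in each comparison) and their median change were recomputed under every alternative. With limma array weights 14 members passed at 6 h, 13 at 24 h and 9 between 24 h and 6 h, while 9866, 5467 and 5766 of all probes passed; the weights, estimated from the same 9 arrays, ran from 0.27 (6 h replicate 2) to 8.26 (pre-feeding replicate 3). Spike-in centring called 14 members at 24 h (35.9%), beside 5391 of all tested probes (27.3%), 5388 of them higher. Leaving out each array in turn gave 0 to 1 members at 6 h, 0 at 24 h and 0 to 2 for 24 h against 6 h, where only leaving out 6 h replicate 2 gave any: SmN at 6 h, and SFRS3 b and SmN (1.05, limma adjusted p = 0.0495) for 24 h against 6 h. The median at 24 h was 1.29 with spike-in centring, -0.06 with no filter on dim probes and 0 with array weights; for 24 h against 6 h it was 0.84 with spike-in centring and -0.17 with no filter. Without the filter the median of all probes moved too, to -0.29 and -0.35. With 1 array left out the medians ran from -0.18 to 0, 0.13 to 0.34 and -0.08 to 0.15.

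Of the 21 values chosen by the naming rule, direction turned with spike-in centring for HCC splicing factor b at 24 h (0.44) and for 24 h against 6 h for the SFRS2-interacting protein (0.25), PRPF3 a (0.31), PRP18 (0.19), SFRS11 c (0.10) and SFRS11 d (0.14), and with normexp for PRP18 at 24 h (-0.26). In 18 further cases, over 15 named values, a member passed the threshold under an alternative, and no other case among these 21 values changed its side or direction. Other members described in the report also turned at 24 h with spike-in centring. Same-numbered arrays of different groups had correlations of their deviations from -0.20 to 0.64, and differently numbered arrays from -0.63 to 0.43. These ranges overlap and do not settle whether the numbers pair samples, so the main fit left pairing out. With the replicate block the members' medians were -0.10, 0.30 and 0.06 and 0 members passed, while 606 of all probes passed at 6 h against 5 without it. Each group has 3 arrays, and probes near background, such as PRP18, have only a bound before feeding.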
